A study of Homo sapiens with 9 samples.

Results

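Small Cajal body RNAs (scaRNAs, gene symbols SCARNA) were followed across A549 cells grown with and without attachment. Members were all probe sets with a single gene symbol in the array's annotation that began with SNORD, SNORA or SCARNA, host genes excepted. Any probe set listing several symbols was left out of this search and counts as unnamed below. A single symbol was given to 16098 of the 53617 probe sets, called named here. Of these, 0 carried a SNORD symbol and 0 a SNORA symbol. All 23 members were therefore scaRNA genes, with 1 probe set each, and the small nucleolar RNAs of the nucleolus were not analysed here. By their known structure 5 members were of the box C/D class (SCARNA2, SCARNA7, SCARNA9, SCARNA9L and SCARNA17), 13 of the H/ACA class and 4 of the mixed class that carries both boxes (SCARNA5, SCARNA6, SCARNA10 and SCARNA12). SCARNA27 was left without a class.

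The A549 line derives from a human lung adenocarcinoma, and every group was kept in DMEM with fetal bovine serum for 5 days. The first group grew on low-attachment plates in medium with 0.015% (w/v) of an additive labelled FP001. The second grew on low-attachment plates and the third on ordinary attachment plates, both with Milli-Q water in place of FP001. Each condition was collected 3 times and read on 1 array per sample, and attachment replicate 1 was left out, which leaves 3, 3 and 2 arrays. The FP001 group differed from the attachment group in both plate and additive, which cannot be told apart in that comparison.

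Cajal bodies are bodies in the nucleus where the small nuclear RNAs of the spliceosome mature. A scaRNA pairs with such an RNA and guides an enzyme to a chosen base, for ribose methylation by box C/D particles (with fibrillarin, FBL) or for conversion of uridine to pseudouridine by H/ACA particles (with dyskerin, DKC1). Most scaRNAs are cut out of an intron of another gene, so the host's transcription supplies them, while SCARNA2 is transcribed from a promoter of its own.

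For 2 H/ACA members the sequence of a stretch could be shown, because RefSeq (GRCh38.p14) also annotates a microRNA hairpin across it. The stretches are given to show the ACA box that names the class, in capitals, and both reach the 3′ end of the member. The SCARNA3 stretch has 83 bases (chr1:175968397-175968479, minus strand), out of 144 in the gene, and lies in the hairpin of MIR1843. The SCARNA16 stretch has 77 bases (chr17:77089417-77089493, plus strand), out of 187, and lies in the hairpin of MIR6516.
SCARNA3: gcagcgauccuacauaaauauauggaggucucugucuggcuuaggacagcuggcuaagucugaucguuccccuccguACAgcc
SCARNA16: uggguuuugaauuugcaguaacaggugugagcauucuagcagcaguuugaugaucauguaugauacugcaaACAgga
In both, 3 bases followed the ACA, the spacing known for the 3′ end of H/ACA RNAs. The annotated mature hsa-miR-6516-3p ended on this ACA. It is shown with its seed in capitals, to set the microRNA against the scaRNA it overlaps.
hsa-miR-6516-3p: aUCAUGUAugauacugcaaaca
A probe set that covers this stretch could not tell the microRNA precursor from the scaRNA.

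Intensities were the authors' MAS5 values on a linear scale. On the 8 arrays used, the median intensity lay between 23.3 and 24.1, and the lowest rank correlation between any of them was 0.961. The array left out had a median of 15.8 and its highest rank correlation with any other array was −0.00191. Among markers of A549's origin, 4 of 4 named epithelial keratin and adhesion genes were at or above the array median on all 8 arrays, as were 3 of 5 markers of lung epithelium. These 3 were dim, with SFTPB at 27.5 to 41.6, SFTPC at 31.8 to 43.8 and SFTPD at 51.5 to 65.4. NKX2-1, a lung lineage factor, was so on 4 arrays. The summed intensity of the 4 epithelial markers ran from 5027 to 5599 with FP001 on low-attachment plates, from 4312 to 4675 on low-attachment plates in normal medium and from 4088 to 4229 on attachment plates. The summed intensity of the 2 named fibroblast markers ran from 82.7 to 440.1, from 27.9 to 250.4 and from 31.6 to 96.7 in the same order of groups, with DCN below the median on every array. CD68, the 1 named leukocyte marker, read 443.6 to 626.9, 356.4 to 511.0 and 286.1 to 321.1 in that order. It was above the median on all 8 arrays, and both low-attachment groups were separate from the attachment arrays. They were also separate for the epithelial sum, most of it KRT18 (3478 to 4579). The same held for the sum of the 5 lung epithelial markers (172.0 to 212.9, 179.9 to 196.4 and 160.0 to 163.2). The 2 named endothelial markers summed to 40.0 to 52.9, 36.0 to 40.5 and 34.9 to 39.5. The part of these shifts in the results on scaRNAs was not tested.

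A probe set was tested if 2 or more of the 8 arrays read it at or above their own median. Of the 23 members, 20 passed, and SCARNA1, SCARNA15 and SCARNA23 did not. Changes are differences of group means of log2 intensity, with the standard error (SE) of a limma fit over all 29017 probe sets kept, and a probe set was called at a Benjamini-Hochberg adjusted p under 0.05 over all of them. Replicate numbers were not used in this fit. Nothing in the labels says that replicates came from separate cultures, so these p-values measure the spread between samples, which may be technical. RNA was bound to silica columns, which hold back very short RNAs poorly, and labelled by a protocol that primes on poly(A) tails, which mature scaRNAs lack. How far an intensity reads the mature scaRNA rather than a longer precursor was not tested. Fewer cells that express a gene and less of its RNA per cell cannot be told apart either.

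**Figure D1:**
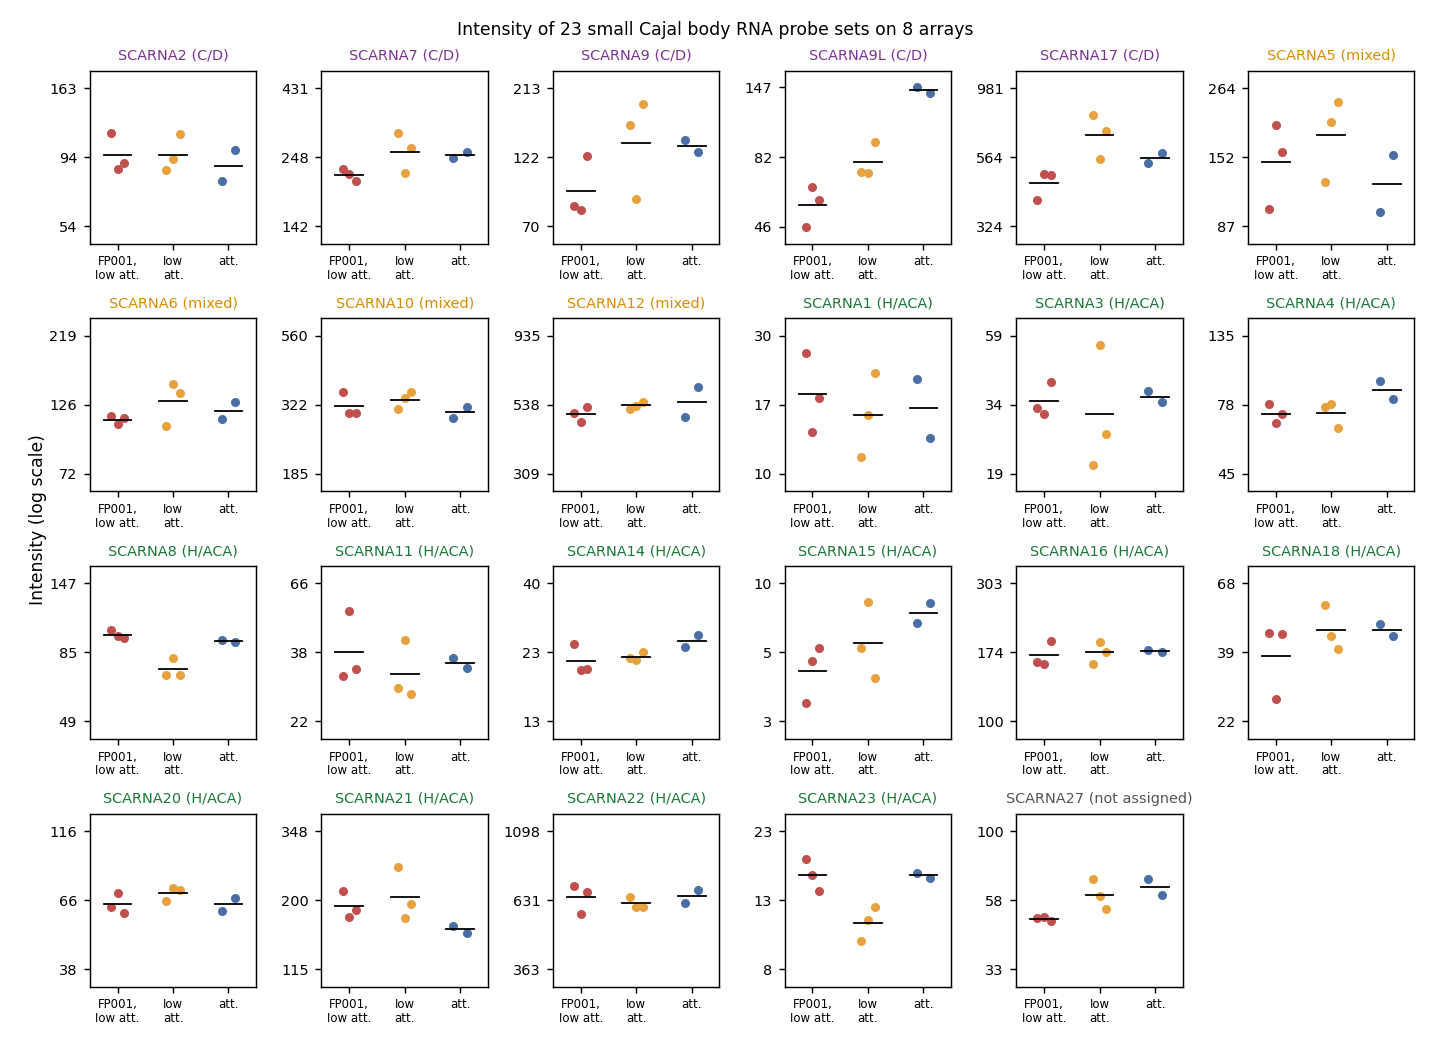
Intensity of each of the 23 members on the 8 arrays (vertical axis, log scale, a different range in each panel), with FP001 on low-attachment plates at left, low-attachment plates in normal medium in the middle and attachment plates at right. Points are arrays and bars are geometric means; SCARNA9L reads 45.9 to 93.2 on low-attachment arrays with or without FP001 and 140.5 to 147.4 on attachment arrays.

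Of the 20 tested members 1 was called, in both comparisons with attachment. Over all tested probe sets 4.71% were called in normal medium and 13.9% with FP001. The member was SCARNA9L, a copy of SCARNA9 on another chromosome. Its intensity was 45.9, 64.0 and 57.3 with FP001 on low-attachment plates, 72.6, 72.0 and 93.2 on low-attachment plates in normal medium, and 147.4 and 140.5 on attachment plates. No group overlapped another. On low-attachment plates in normal medium it was 1.83-fold lower than on attachment plates (log2 fold change −0.87 ± 0.16 SE, adjusted p = 0.0247 by limma). With FP001 it was 2.61-fold lower than on attachment plates (log2 fold change −1.38 ± 0.16, adjusted p = 0.00285). Between the low-attachment groups the log2 fold change was −0.51 ± 0.15 for FP001 over normal medium (95% interval −0.84 to −0.18), which was not called (adjusted p = 0.279).

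The second of these calls held in each fit that left out 1 of the 8 arrays (adjusted p from 0.00395 to 0.0348). The first did not. Its adjusted p was 0.154 once attachment replicate 2 was dropped and 0.109 once replicate 3 of that group was. Dropping low-attachment replicate 1 gave 0.0734 and replicate 2 gave 0.0682, with log2 fold changes from −0.99 to −0.81 over all 8 such fits. With 1 attachment array left, that array is assumed to vary like the other groups.

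SCARNA9, the namesake, guides ribose methylation of the U2 spliceosomal RNA. It read 82.5, 80.1 and 123.1 with FP001 on low-attachment plates, 158.3, 87.3 and 187.3 on low-attachment plates in normal medium, and 140.8 and 127.8 on attachment plates. The low-attachment arrays in normal medium spread over nearly the whole range of the 8 arrays, with replicate 2 far below the other 2. Its log2 fold change was 0.03 ± 0.31 for low attachment over attachment (adjusted p = 0.962) and −0.52 ± 0.31 for FP001 over attachment (adjusted p = 0.273). For FP001 over normal medium it was −0.56 ± 0.27 (unadjusted p = 0.0734, adjusted p = 0.505), and each FP001 array was below the array in normal medium with the same replicate number.

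Because the genes are copies, their probe sets may share targets, and the level of either alone is uncertain. The ratio of SCARNA9L to SCARNA9 on an array was 0.556, 0.799 and 0.466 with FP001, 0.458, 0.825 and 0.498 on low-attachment plates in normal medium, and 1.05 and 1.10 on attachment plates. All low-attachment arrays with or without FP001 were below both attachment arrays. The mean log2 ratio was lower by 0.90 in normal medium and by 0.86 with FP001, each against attachment (difference −0.90 and −0.86, exact permutation p = 0.2 for both, two-sided as the smaller tail counted on both sides, the smallest p of that form for 3 against 2 arrays). Between FP001 and normal medium the difference of the mean log2 ratio was 0.05 (exact permutation p = 0.9). This pair was set side by side after its values were seen.

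The other 3 box C/D members were not called in any comparison. SCARNA17, which guides methylation of the U4 and U12 RNAs, read 401.4, 490.9 and 487.3 with FP001, 792.7, 555.9 and 697.8 on low-attachment plates in normal medium, and 540.0 and 581.2 on attachment plates. Every FP001 array was below every array of both other groups. For FP001 over normal medium its log2 fold change was −0.56 ± 0.14 (95% interval −0.87 to −0.25, unadjusted p = 0.00278), and the adjusted p of 0.228 missed the threshold.

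SCARNA7, a guide for the U1 RNA, read 225.2, 216.2 and 204.9 with FP001, 299.5, 217.7 and 266.2 on low-attachment plates in normal medium, and 245.9 and 259.0 on attachment plates. For FP001 over normal medium its log2 fold change was −0.27 ± 0.12 (adjusted p = 0.457), and low-attachment replicate 2 lay next to the FP001 arrays. SCARNA2, another guide for the U2 RNA, read 113.5, 85.4 and 89.3 with FP001, 84.5, 92.3 and 112.4 on low-attachment plates in normal medium, and 77.5 and 99.0 on attachment plates. Its groups overlapped in all 3 comparisons, with log2 fold changes between −0.01 and 0.13 (adjusted p from 0.66 to 0.993).

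None of the 4 mixed members was called. SCARNA10, which guides both modifications on the U5 RNA, had log2 fold changes of 0.15 ± 0.11 for low attachment over attachment, 0.08 ± 0.11 for FP001 over attachment and −0.07 ± 0.10 for FP001 over normal medium. Its intensities ran from 302.0 to 355.8 with FP001, from 310.9 to 357.3 in normal medium on low-attachment plates and from 290.3 to 315.7 on attachment plates. SCARNA5 and SCARNA6 lie within the span of the same gene, ATG16L1, a factor of autophagy. SCARNA5 read 100.6, 197.1 and 158.5 with FP001, 124.3, 202.1 and 236.2 in normal medium on low-attachment plates, and 97.8 and 154.7 on attachment plates. It had the widest spread within groups of the 20 tested members (pooled SD 0.49 on the log2 scale), and its log2 fold change of 0.56 ± 0.34 for low attachment over attachment was not called (95% interval −0.22 to 1.34, adjusted p = 0.388). SCARNA6 had a pooled SD of 0.17 and log2 fold changes between −0.22 and 0.11. SCARNA12, inside the prohibitin gene PHB2, had log2 fold changes between −0.14 and −0.03.

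Among the H/ACA members, SCARNA8 had the smallest unadjusted p of any member for FP001 over normal medium. It guides pseudouridine formation in the U2 RNA. Its intensity was 101.8, 96.5 and 94.8 with FP001, 70.7, 81.2 and 70.5 on low-attachment plates in normal medium, and 93.6 and 92.3 on attachment plates. The low-attachment arrays in normal medium were below all other arrays, and the FP001 arrays were just above the attachment arrays. The log2 fold change was 0.40 ± 0.09 for FP001 over normal medium (95% interval 0.20 to 0.60, unadjusted p = 0.00142, adjusted p = 0.203), and −0.33 ± 0.10 for low attachment over attachment (adjusted p = 0.0946). Both share the arrays in normal medium. Neither was called.

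SCARNA21 read 216.0, 174.1 and 184.6 with FP001, 260.4, 172.9 and 193.6 on low-attachment plates in normal medium, and 163.1 and 153.7 on attachment plates. Both attachment arrays were the lowest, yet the log2 fold changes of 0.27 ± 0.17 with FP001 and 0.38 ± 0.17 in normal medium against attachment were not called (adjusted p = 0.308 and 0.241). SCARNA4, a guide for the U2 RNA, read 78.0, 66.8 and 71.9 with FP001, 76.3, 77.8 and 64.3 in normal medium on low-attachment plates, and 93.7 and 81.1 on attachment plates. Here both attachment arrays were the highest, with log2 fold changes of −0.27 ± 0.12 in each comparison with attachment (adjusted p = 0.169 with FP001 and 0.261 in normal medium).

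SCARNA22 lies inside NSD2, a gene known for its translocation in multiple myeloma. It read 708.4, 562.8 and 673.3 with FP001, 645.0, 599.5 and 599.5 on low-attachment plates in normal medium, and 616.5 and 686.9 on attachment plates. Its log2 fold change for low attachment over attachment was −0.08 (95% interval −0.33 to 0.17). SCARNA16, a guide for the U1 RNA whose 3′ end is printed above, had log2 fold changes between −0.05 and −0.01, with intervals that reached from −0.31 to 0.25 over the 3 comparisons. SCARNA20 lay between −0.13 and 0.13 and SCARNA14 between −0.23 and −0.05.

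SCARNA3, SCARNA11 and SCARNA18 varied widely within groups, with pooled SDs of 0.48, 0.34 and 0.33, and were not called. SCARNA3, also printed above, read 20.9, 54.9 and 26.9 on the low-attachment arrays in normal medium alone. SCARNA27, the member without a class, read 49.8, 50.4 and 48.7 with FP001, 68.3, 59.4 and 53.6 in normal medium on low-attachment plates, and 68.2 and 60.1 on attachment plates. The FP001 arrays were the lowest, and the log2 fold change of −0.37 ± 0.12 against attachment missed the threshold (adjusted p = 0.0777).

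The 3 members under the filter were dim. SCARNA15, known as a source of a small RNA that acts like a microRNA, read 3.66 to 5.67 with FP001, 4.45 to 8.19 in normal medium on low-attachment plates and 6.91 to 8.12 on attachment plates. SCARNA23 read 14.5 to 18.7, 9.64 to 12.7 and 16.1 to 16.6 in the same order, and SCARNA1 14.1 to 26.6, 11.5 to 22.7 and 13.4 to 21.6. In a fit with no filter none of them was called in any comparison (adjusted p from 0.166 to 0.988).

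**Figure D2:**
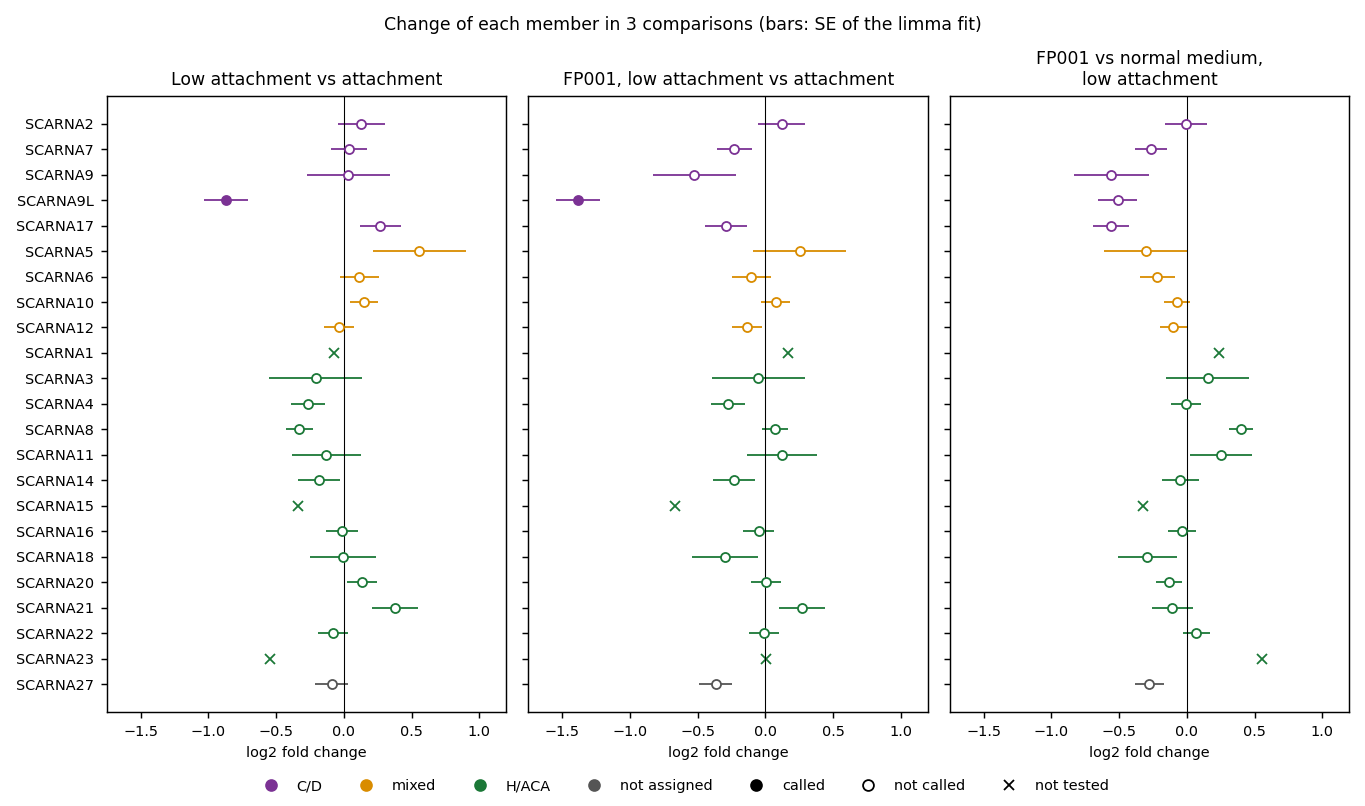
Log2 fold change of each member (horizontal axis) for low attachment over attachment, FP001 over attachment and FP001 over normal medium, coloured by class, with the SE of the limma fit as bars. Filled points were called, open points were not, and crosses were not tested; SCARNA9L, at −0.87 and −1.38, is the filled point.

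For low attachment over attachment, 1 of 20 tested members was called, the fall of SCARNA9L, where 4.71% of all tested probe sets were called and 2.91% were called lower. The median log2 fold change of all 23 members was −0.03, and that of all probe sets tested was 0.01. The groups did not overlap for 5 of the 20, 1 higher and 4 lower, where 41.5% of all tested probe sets had groups that did not overlap. For FP001 over attachment, again 1 of 20 was called, where 13.9% of all probe sets were and 9.26% were called lower. The median of all 23 members was −0.05, against 0.02 for all probe sets, and 8 of the 20 had groups that did not overlap, 2 higher and 6 lower, beside 49.6% of all probe sets. Both comparisons use the same attachment arrays.

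For FP001 over normal medium on low-attachment plates, 0 of 20 members were called by limma, where 0.00345% of all probe sets were. At an unadjusted p under 0.05 there were 5 of 20 (SCARNA8, SCARNA17, SCARNA9L, SCARNA27 and SCARNA7), where 10.9% of all probe sets were. With the replicate number as a block there were 6, SCARNA9 being the sixth, where 13.3% of all probe sets were. Of the 20 tested members 4 had groups that did not overlap, 3 of them lower with FP001, where 16.6% of all probe sets had such groups. Over all 23 members, 17 log2 fold changes were negative and 6 positive, with a median of −0.10, against 0.00 for all probe sets.

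The classes were set side by side for each comparison. For FP001 over normal medium, all 5 box C/D members had negative log2 fold changes, with a median of −0.51 and a range of −0.56 to −0.01. The 4 mixed members were also all negative, with a median of −0.16, while of the 13 H/ACA members 7 were negative and 6 positive, with a median of −0.01. The median of box C/D minus that of H/ACA was thus −0.50. For FP001 over attachment the medians were −0.29 for box C/D and −0.01 for H/ACA (difference −0.28), and for low attachment over attachment 0.04 and −0.13 (difference 0.17).

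The same class difference on single arrays shows the error of these values. Against each member's mean on the low-attachment arrays in normal medium, box C/D minus H/ACA was −0.81, −0.17 and −0.39 on the FP001 arrays, beside 0.27, −0.31 and 0.30 on the arrays in normal medium themselves. The groups overlapped, through replicate 2 of each. The box C/D median alone was −0.73, −0.30 and −0.34 on the FP001 arrays and 0.21, −0.25 and 0.23 on the arrays in normal medium, lower with FP001 for each replicate number. Against the mean of the attachment arrays, box C/D minus H/ACA was −0.44, −0.02 and −0.15 with FP001 and 0.44, −0.14 and 0.54 in normal medium on low-attachment plates. On the attachment arrays themselves it was −0.06 and 0.06. With 2 attachment arrays these values mirror each other by construction, so they are not independent readings of the spread. Neither set was separate from them. Low-attachment replicate 2 read lowest of its group for SCARNA7, SCARNA9 and SCARNA17, and only just so for SCARNA9L (72.0 against 72.6 on replicate 1). Without low-attachment replicate 2 the difference between classes was −0.62 for FP001 over normal medium and 0.33 for low attachment over attachment. Class goes with length: the box C/D members span 330 to 421 bases in RefSeq, the mixed ones 266 to 330 and the H/ACA ones 125 to 187, so that class and length cannot be told apart here.

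**Figure D3:**
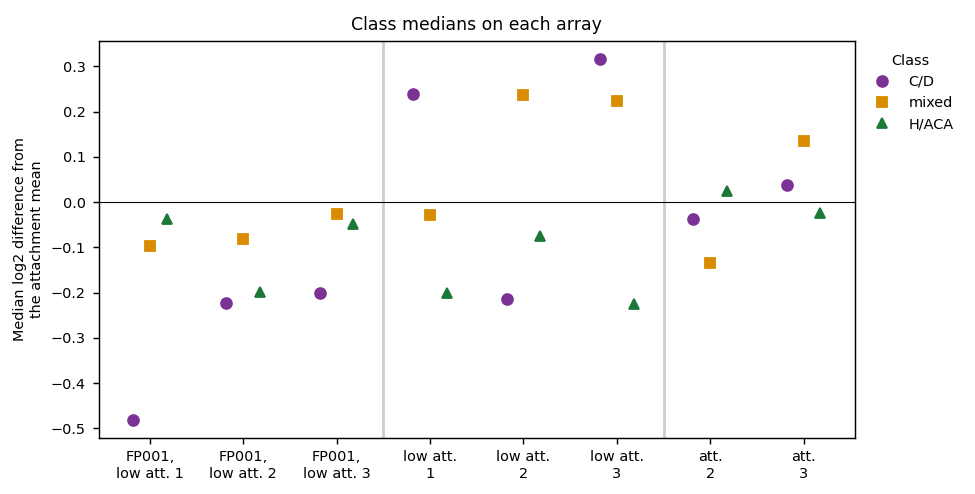
Median over the members of each class of the log2 difference from the member's mean on attachment arrays (vertical axis), on each of the 8 arrays (horizontal axis). Box C/D medians are −0.48 to −0.20 on FP001 arrays and 0.24, −0.21 and 0.32 on low-attachment arrays in normal medium; the H/ACA medians stay between −0.22 and 0.03.

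Of the 23 members 22 lie within the span of another RefSeq gene, and SCARNA2 does not. A named probe set was at hand for 12 of the surrounding genes, which hold 13 members, and all 12 were tested. Of these genes 1 fell in each comparison with attachment, KHDC4, an RNA-binding protein gene around SCARNA4. Over all 11126 named genes tested, each by its brightest probe set, 3.42% fell for low attachment over attachment and 8.61% for FP001 over attachment. KHDC4 had a mean intensity of 99.0 with FP001 (80.4 to 111.9), 119.4 on low-attachment plates in normal medium (115.5 to 127.5) and 253.7 on attachment plates (253.6 to 253.7). Its log2 fold change was −1.36 ± 0.14 with FP001 (adjusted p = 0.00193) and −1.09 ± 0.14 in normal medium (adjusted p = 0.00792), each over attachment, where SCARNA4 had −0.27 in both. The call in normal medium was lost without attachment replicate 2 or 3 (adjusted p = 0.0648 and 0.0569). None of the 12 was called between FP001 and normal medium, with log2 fold changes from −0.27 to 0.18.

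Over the 12 pairs with both tested, of which 2 share ATG16L1, Pearson's r of the log2 fold changes was 0.33 for low attachment over attachment, 0.23 for FP001 over attachment and −0.08 for FP001 over normal medium. These are descriptions across genes of the same arrays. The signs matched in 6, 7 and 6 of the 12 pairs. The gene around SCARNA9L, EIF1AX, has no named probe set here.

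**Figure D4:**
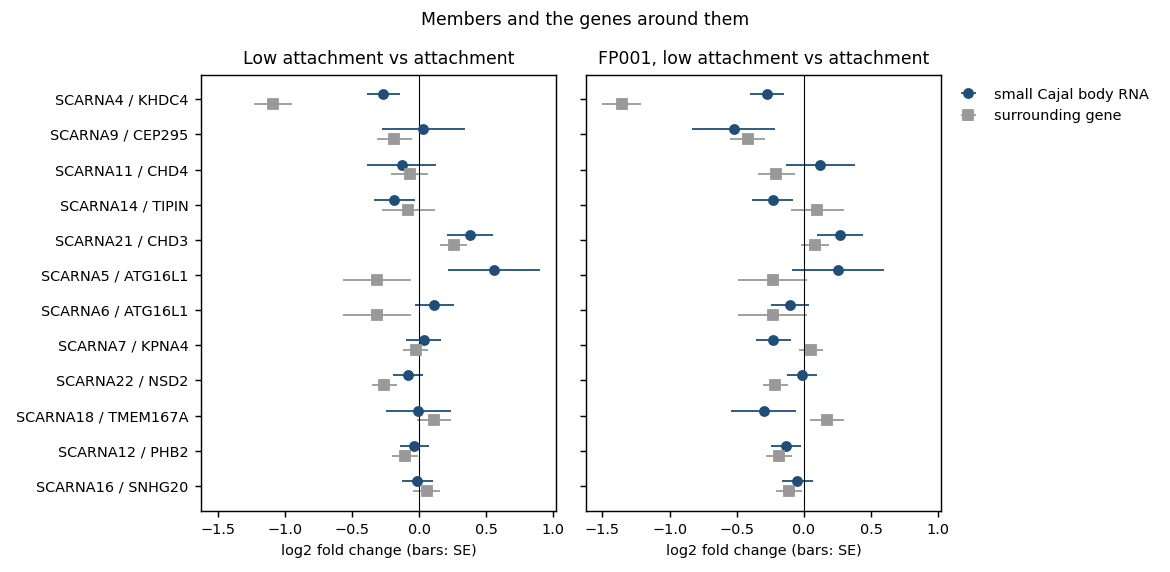
Log2 fold change (horizontal axis, bars are SE) of 12 members and of the gene each lies in, for low attachment over attachment and FP001 over attachment. KHDC4 lies at −1.09 and −1.36 while SCARNA4 within it lies at −0.27 in both.

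The proteins that build scaRNA particles were read from lists of pathway genes. Each list holds few genes, and its counts stand beside the 3.42% and 8.61% of named genes that fell, and the 2.29% that rose for low attachment over attachment. None of the 3 tested box C/D core proteins (FBL, which carries out the methylation, NOP58 and SNU13) and none of the 3 tested H/ACA core proteins (NHP2, NOP10 and GAR1) was called in any comparison. FBL had log2 fold changes of −0.27 ± 0.13 with FP001 and −0.26 ± 0.13 in normal medium, each over attachment (adjusted p = 0.178 and 0.283). DKC1 was not named here. Of 8 assembly factors 1, NUFIP1, fell for FP001 over attachment (log2 fold change −0.50, adjusted p = 0.0334) and 0 for low attachment over attachment. The NUFIP1 call was lost with no filter (adjusted p = 0.0531) and with quantile normalization (0.051). It was also lost without FP001 replicate 1, 2 or 3 (adjusted p = 0.0826, 0.0656 and 0.0553).

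Of 7 tested proteins of Cajal bodies 1 fell in both comparisons with attachment. This was USPL1, a SUMO protease of Cajal bodies, with a mean intensity of 102.5 with FP001 (92.0 to 116.4), 117.6 on low-attachment plates in normal medium (99.6 to 130.8) and 249.2 on attachment plates (238.7 to 260.2). Its log2 fold change was −1.28 ± 0.14 with FP001 (adjusted p = 0.0025) and −1.08 ± 0.14 in normal medium (adjusted p = 0.00804). The call in normal medium was lost without attachment replicate 2 (adjusted p = 0.0724). Coilin, COIL, the scaffold of the body, had −0.16 ± 0.10 in both (adjusted p = 0.309 with FP001 and 0.396 in normal medium).

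Of 17 genes listed under RNA trimming and decay, among them the assembly factor NAF1 that is also counted above, 2 fell for FP001 over attachment. These were the exonuclease XRN2 (log2 fold change −0.56 ± 0.09, adjusted p = 0.00851) and the exosome helicase MTREX (−0.55 ± 0.14, adjusted p = 0.0317). Without attachment replicate 2 neither was called (adjusted p = 0.0798 and 0.155), and MTREX was also not called without attachment replicate 3 (0.118) or FP001 replicate 1 (0.0501) or 2 (0.0562). XRN2 fell also for low attachment over attachment (−0.41 ± 0.09, adjusted p = 0.0457), a call lost under most alternatives, among them median centring (adjusted p = 0.0511). Of 9 tested non-coding hosts of small nucleolar RNAs, 2 fell for FP001 over attachment and 0 for low attachment over attachment. These were GAS5, by 1.74-fold (adjusted p = 0.0066; 0.0677 without attachment replicate 2), and SNHG5, by 1.44-fold (adjusted p = 0.0242; 0.168 without attachment replicate 2, 0.0582 and 0.0684 without FP001 replicate 1 or 2, and 0.0502 with the replicate number as a block). Of 13 proteins of the U3 processome, which makes the first cuts in ribosomal RNA precursors, 1 rose in normal medium (NOL6, adjusted p = 0.0482) and 2 fell with FP001 (HEATR1 and RCL1, adjusted p = 0.0309 and 0.0268), each over attachment. Of 8 nucleolar genes 1 fell for FP001 over attachment, RRN3, a factor of RNA polymerase I (adjusted p = 0.027). None of NUFIP1, NOL6, HEATR1, RCL1 and RRN3 was called without attachment replicate 2 (adjusted p from 0.138 to 0.266) or without replicate 3 (0.0786 to 0.125). The NOL6 call was lost in 7 of the 8 fits that left out an array (the exception being FP001 replicate 1), with no filter (adjusted p = 0.0713), with median centring (0.0595) and with no variance trend (0.0711). RCL1 was also not called without FP001 replicate 1 or 2 (adjusted p = 0.0673 and 0.0663), nor RRN3 without FP001 replicate 2 (0.0534). No gene of these lists was called for FP001 over normal medium. The list medians lay between −0.32 and 0.01 over both comparisons with attachment, where the medians of all probe sets were 0.01 in normal medium and 0.02 with FP001.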

How the data were processed

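Total RNA of A549 cells was read on Affymetrix arrays after biotin labelling, per the labels' protocols. The submitters' processing notes name MAS5 for the deposited intensity values. No version or scaling target is given in the sources used here. Gene names came from the platform's annotation at GEO, brought up to date by gene identifier with RefSeq (GRCh38.p14), which also gave lengths and surrounding genes; strand was not used for the latter. Any probe set listing several gene symbols was treated as unnamed, though it stayed among all probe sets. Classes came from general knowledge.

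Values were analysed as log2 intensity with no pseudocount and no further scaling. Attachment replicate 1 was left out throughout, as the choice of members asked, and a fit of all 9 arrays was an alternative. Group means of 8 arrays were fitted with limma 3.58.1 in R 4.3.3 (lmFit, eBayes with trend; 5 residual and 3.76 prior degrees of freedom), and p-values were two-sided. Each gene other than a member was read from its brightest probe set. The fit was tested on simulated data. Other tables were made in Python 3.11.15. The small number of arrays limits precision.

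The rule for naming took every called member, the 6 brightest box C/D members, the 6 brightest H/ACA members and the 4 brightest scaRNAs. It also took certain small nucleolar RNAs by name, surrounding genes of called members and up to 4 called genes per list. The rest of the members, and KHDC4, were named beyond it after their values were seen. Other genes around uncalled members, and list genes that were not called such as FBL and COIL, were also named beyond it. The members and lists were chosen with earlier results of these data known.

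Pairing by replicate number was checked by correlating deviations from group means. Same-numbered arrays of the low-attachment groups with and without FP001 correlated at 0.269, 0.172 and 0.197, each over 0.1, and their numbers were taken as paired. The limma fit behind the printed SEs, intervals and p-values did not use this pairing, except where the replicate number is named as a block. With that block, adjusted p for FP001 over normal medium was 0.182 for SCARNA9L and SCARNA17 and 0.159 for SCARNA8. For SCARNA9 the unadjusted p was then 0.0431 (adjusted p = 0.357), and no member was called. For attachment replicates 2 and 3 the correlations with same-numbered arrays lay between −0.12 and 0.06. Alternatives were a fit with the replicate number as a block, 2 filters, a pseudocount of 16, quantile and median scaling, 1 probe set per gene, no variance trend and leaving out each array.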

Additional observations from a re-analysis of the deposited data

Results flagged for a closer look

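Attachment replicate 1, the array left out, read higher than all 8 other arrays for 3 members, SCARNA12 (949.8), SCARNA14 (95.8) and SCARNA20 (357.9), and lower than all of them for 16. It was singled out because it is not used in any comparison and lists values above the attachment arrays in use, which read 486.7 and 618.2, 24.1 and 26.4, and 60.9 and 67.5 for these genes. No other array followed it over all probe sets (rank correlation at most −0.00191). Whether the values of that array stand beside the right probe sets was not tested, and they are given only as listed under these genes.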

How the results depend on the processing

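SCARNA9L stayed called in both comparisons with attachment under both other filters, the pseudocount, both scalings, 1 probe set per gene, no variance trend and the replicate block, where the counts of called members were 1 and 1 (SCARNA9L at adjusted p = 0.0326 in normal medium and 0.00451 with FP001). The block changed no call of a member, and between FP001 and normal medium 0 members were called under any alternative. Leaving out single arrays, the count ran from 0 to 1 for low attachment over attachment and stayed 1 for FP001 over attachment. With all 9 arrays it was 0 in each comparison, and log2 fold changes turned to 0.78 in normal medium and 0.27 with FP001 for SCARNA9L, 0.80 and 0.53 for KHDC4, 0.40 and 0.20 for USPL1 and 1.82 and 1.67 for XRN2. With FP001 they turned to 1.09 for GAS5, 0.19 for HEATR1, 2.22 for MTREX, 1.02 for NUFIP1, 0.70 for RCL1 and 0.36 for SNHG5. The median of box C/D minus that of H/ACA was then 1.46 for low attachment over attachment and 0.77 for FP001 over attachment. The cause was not tested beyond the array's lack of correlation with any other. Leaving out single arrays of the 8, that difference ran from 0.05 to 0.33 and from −0.34 to −0.18, and from −0.62 to −0.31 for FP001 over normal medium. Without SCARNA9L, an alternative chosen after seeing the data, it was 0.21, −0.25 and −0.40. For FP001 over normal medium the count over all probe sets was 1, against 26 with the replicate block, 10 with quantile normalization and 12 genes with 1 probe set per gene. For low attachment over attachment it was 1368, against 137 and 232 without attachment replicate 2 or 3; for FP001 over attachment it was 4025, against 530 and 1508. Quantile normalization turned the split of calls from 525 up and 843 down to 708 and 689 in normal medium, and from 1337 and 2688 to 1809 and 2194 with FP001. A fit without SNORD113 to SNORD116 had no members to leave out and was not run.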
